A study of Mus musculus with 6 samples.

Results

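The genes of eukaryotic translation initiation factors were examined in a mouse myoblast line in which a Dux-type transcription factor had been switched on. Members were the rows whose symbol begins with Eif2, Eif3, Eif4, Eif5 or Eif6, without Eif4a3, which serves the exon junction complex, and without pseudogene symbols, which gave 48 of the 24028 genes in the count table. The rule did not use the measured values. Of these 48 genes, 45 had enough counts to be tested.

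The 2 groups were cultures of a single clone of C2C12, an immortalised line of mouse myoblasts, with a codon-altered, doxycycline-inducible transgene named MMH (line MMH6). The transgene joins the homeodomains of mouse Dux to the part of human DUX4 that lies behind its own homeodomains. Induced cultures received 2 µg/ml doxycycline and uninduced cultures received none, and both were kept in puromycin. Induction is given as 18 h in the design text and as 36 h in the treatment protocol, which leaves the duration uncertain. Each group had 3 libraries of polyadenylated RNA, described as separate cultures. Cells that received the drug and lack MMH are not analysed here, so effects of drug and transgene cannot be told apart. A single clone cannot show how other clones behave.

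Protein synthesis starts when eIF2, loaded with GTP and initiator tRNA, joins the small ribosomal subunit together with eIF3 and eIF5, while the eIF4F complex (the cap-binding protein eIF4E, the scaffold eIF4G and the helicase eIF4A) brings in the mRNA. eIF5 triggers GTP hydrolysis by eIF2, eIF5B joins the large subunit, and eIF2B reloads eIF2 with GTP. Well-known points of control are kinases that phosphorylate the alpha subunit of eIF2 and so block eIF2B, binding proteins that hold eIF4E away from eIF4G, kinases that phosphorylate eIF4E, and signalling through mTORC1 to the binding proteins.

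Total counts ranged from 21503384 to 24489531 in induced libraries and from 21897417 to 23985544 in uninduced libraries. The initiation factor genes together held 0.771% ± 0.00610 of all counts in induced cells and 1.28% ± 0.0131 in uninduced cells (SD, n = 3 each). After scaling with TMM, a method that sets the bulk of genes equal between libraries, their summed CPM (counts divided by the scaled library size) were 10781 ± 130.5 in induced cells and 9150 ± 128 in uninduced cells (SD, n = 3 each). The sum was therefore lower in induced libraries as a share of all counts and higher relative to the middle of all genes. TMM factors were 0.716 ± 0.00376 in induced and 1.40 ± 0.00526 in uninduced libraries. The median of all tested genes was -0.011 on the log2 scale with TMM and -0.97 with library size alone. The sources used here record no RNA of known amount added to the samples. Directions below are relative to the middle of all genes unless the other scaling is named.

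Zscan4c, a known target of mouse Dux and one of a family of near-identical genes that may share reads, was at 69761 ± 979 CPM in induced cells and 286 ± 7.35 CPM in uninduced cells (SD, n = 3 each). Defining markers of the labelled cell type were present. Of 9 listed myoblast markers 8 had enough counts to be tested, and all 8 were lower in induced cells, against 41.2% of all tested genes. Their summed level was 972 to 1011 CPM in induced libraries and 1934 to 1946 CPM in uninduced libraries. Pax7, the marker not tested, averaged 0.220 ± 0.0447 CPM in induced cells and 0.0318 ± 0.0328 CPM in uninduced cells. Markers of leukocytes summed to 1.16 to 1.61 CPM in induced and 0.838 to 1.34 CPM in uninduced libraries, and those of epithelium to 0.402 to 0.582 CPM in induced and 0.459 to 0.658 CPM in uninduced libraries. Adipocyte markers, mainly Fabp4, summed to 6.83 to 7.96 CPM in induced and 0.389 to 0.582 CPM in uninduced libraries, with Lep at 0 in every library. Endothelial markers, mainly Flt1, summed to 9.24 to 10.5 CPM in induced and 8.61 to 10.1 CPM in uninduced libraries. Flt1 was lower, at 7.41 ± 0.678 CPM in induced cells and 9.13 ± 0.594 CPM in uninduced cells, while the other 2 tested endothelial markers were higher, Pecam1 at 0.793 ± 0.118 CPM in induced cells and 0.0626 ± 0.0288 CPM in uninduced cells and Tek at 1.33 ± 0.0583 CPM in induced cells and 0.168 ± 0.152 CPM in uninduced cells (SD, n = 3 each). Osteoblast markers summed to 35.2 to 37.1 CPM in induced and 51.3 to 54.1 CPM in uninduced libraries, and neuronal markers, mainly Tubb3, to 109 to 116 CPM in induced and 76.1 to 82.7 CPM in uninduced libraries. Tubb3 was higher and Map2, the other tested neuronal marker, was lower, at 12.3 ± 0.577 CPM in induced cells and 20.8 ± 1.12 CPM in uninduced cells (SD, n = 3 each). The part of the markers of other cell types in the results on initiation factors was not tested. In bulk RNA, fewer cells of a type and less RNA per cell cannot be told apart.

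Promoter sequences are shown for Eif2ak3, the gene that rose most, for Eif2ak2, the kinase gene of the same group that fell, and for Eif4h, which fell by over 1.5-fold and holds an E-box. RefSeq promoters of build GRCm38.p6 were available for 38 of the 48 members, 51 start sites in all. The stretches below begin 250 bases before the start site and end before any base that GENCODE or RefSeq annotates to the gene. Capitals mark CCAAT boxes on either strand, the motif bound by NF-Y, and E-boxes (CACGTG), the motif bound by MYC and MAX and by related factors.
Eif2ak3 (chr6:70844265-70844483, plus strand): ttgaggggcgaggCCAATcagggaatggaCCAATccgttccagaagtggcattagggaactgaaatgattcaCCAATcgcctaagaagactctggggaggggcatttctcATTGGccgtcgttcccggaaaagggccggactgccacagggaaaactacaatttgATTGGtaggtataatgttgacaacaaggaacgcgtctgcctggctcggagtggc
Eif2ak2 (chr17:78882574-78882822, minus strand): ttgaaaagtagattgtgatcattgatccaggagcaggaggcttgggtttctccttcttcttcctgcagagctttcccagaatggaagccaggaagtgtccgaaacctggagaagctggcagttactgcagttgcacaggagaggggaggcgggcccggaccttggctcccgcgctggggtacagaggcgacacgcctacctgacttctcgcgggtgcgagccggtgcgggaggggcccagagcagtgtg
Eif4h (chr5:134639491-134639659, minus strand): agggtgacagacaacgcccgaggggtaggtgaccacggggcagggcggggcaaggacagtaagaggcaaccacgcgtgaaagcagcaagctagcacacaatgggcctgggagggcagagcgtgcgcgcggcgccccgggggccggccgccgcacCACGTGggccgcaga

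The Eif2ak3 window held 6 CCAAT boxes, 5 of them in the stretch shown, a number reached by 0.0578% of the 32851 promoters of the RefSeq table in windows of the same 250 bases. CCAAT was searched on both strands after this sequence had been seen. At least 1 CCAAT box was present in 33.8% of all promoters and in 13 of the 51 member promoters, or 25.5%. The E-box CACGTG, which reads alike on both strands, lay in 10 of the 51 member promoters (19.6%), against 6.02% of all promoters. The member start sites are not independent, because 3 of the 10 belong to Eif5a alone and some of their windows overlap. By gene, an E-box was found for 3 of 23 members with a promoter that were called higher (Eif3f, Eif4a1 and Eif4e) and for 5 of 9 called lower (Eif3k, Eif4g1, Eif4h, Eif5a and Eif5a2). Both directions therefore occurred among members with an E-box. The core of the interferon response element was searched on both strands like the other motifs. It lay in 2 of the 51 member promoters (3.92%), those of Eif2s1 and Eif3a, against 2.98% of all promoters, a share near the background. Windows of the members held no copy of the Dux motif, a palindrome bound by mouse Dux, which 0.0304% of all promoters held, and no TGATGNAAT, a composite site for ATF4 with C/EBP proteins, which 0.816% of all promoters held. Each match describes letters in a window and is not a measured site.

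With TMM, differences between induced and uninduced cells were mostly small and went both ways. Of the 45 tested genes, 38 (84.4%) passed a Benjamini-Hochberg adjusted p of 0.05 in edgeR's quasi-likelihood test and are named as called, against 82.5% of all 12969 genes tested, a share near the background. Higher in induced cells were 29 members (64.4%), against 41.3% of all tested genes, and lower were 9 members (20%), against 41.2% of all. With library size alone 1 member was higher and 42 were lower, against 15.2% of all genes higher and 76.7% lower. Of these 42 members, 29 were lower by at least 1.5-fold. The median log2 fold change of the members was 0.27, against -0.011 for all tested genes. The distance between these medians was 0.28 with TMM, with upper-quartile factors and with library size alone, since a scaling shifts every gene by a like amount, but it was 0.11 without a filter on low counts, where the genes tested differ. Eif2ak3 was the 1 member (2.22%) that changed by 2-fold or more, against 30.7% of all tested genes, of which 18% were higher and 12.7% lower. Changes of at least 1.5-fold were found for 7 members higher (15.6%, against 27% of all) and 3 lower (6.67%, against 24.5% of all). The interquartile range of the members lay between -0.077 and 0.50, while that of all tested genes lay between -0.59 and 0.67.

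In CPM, induced and uninduced libraries were fully apart for 29 members higher in induced cells (64.4%, against 41.5% of all tested genes) and for 10 lower (22.2%, against 41.7% of all), where 83.1% of all tested genes did not overlap in either direction. All 45 tested members had a mean of at least 10 CPM over the 6 libraries. Among the 8861 genes at or above that level 86.6% were called, 43.4% higher and 43.2% lower. The higher share of the members also stood above that of these genes, whereas their share of calls did not. That level is only a lower bound, and genes matched to the members in level were not compared.

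**Figure D1:**
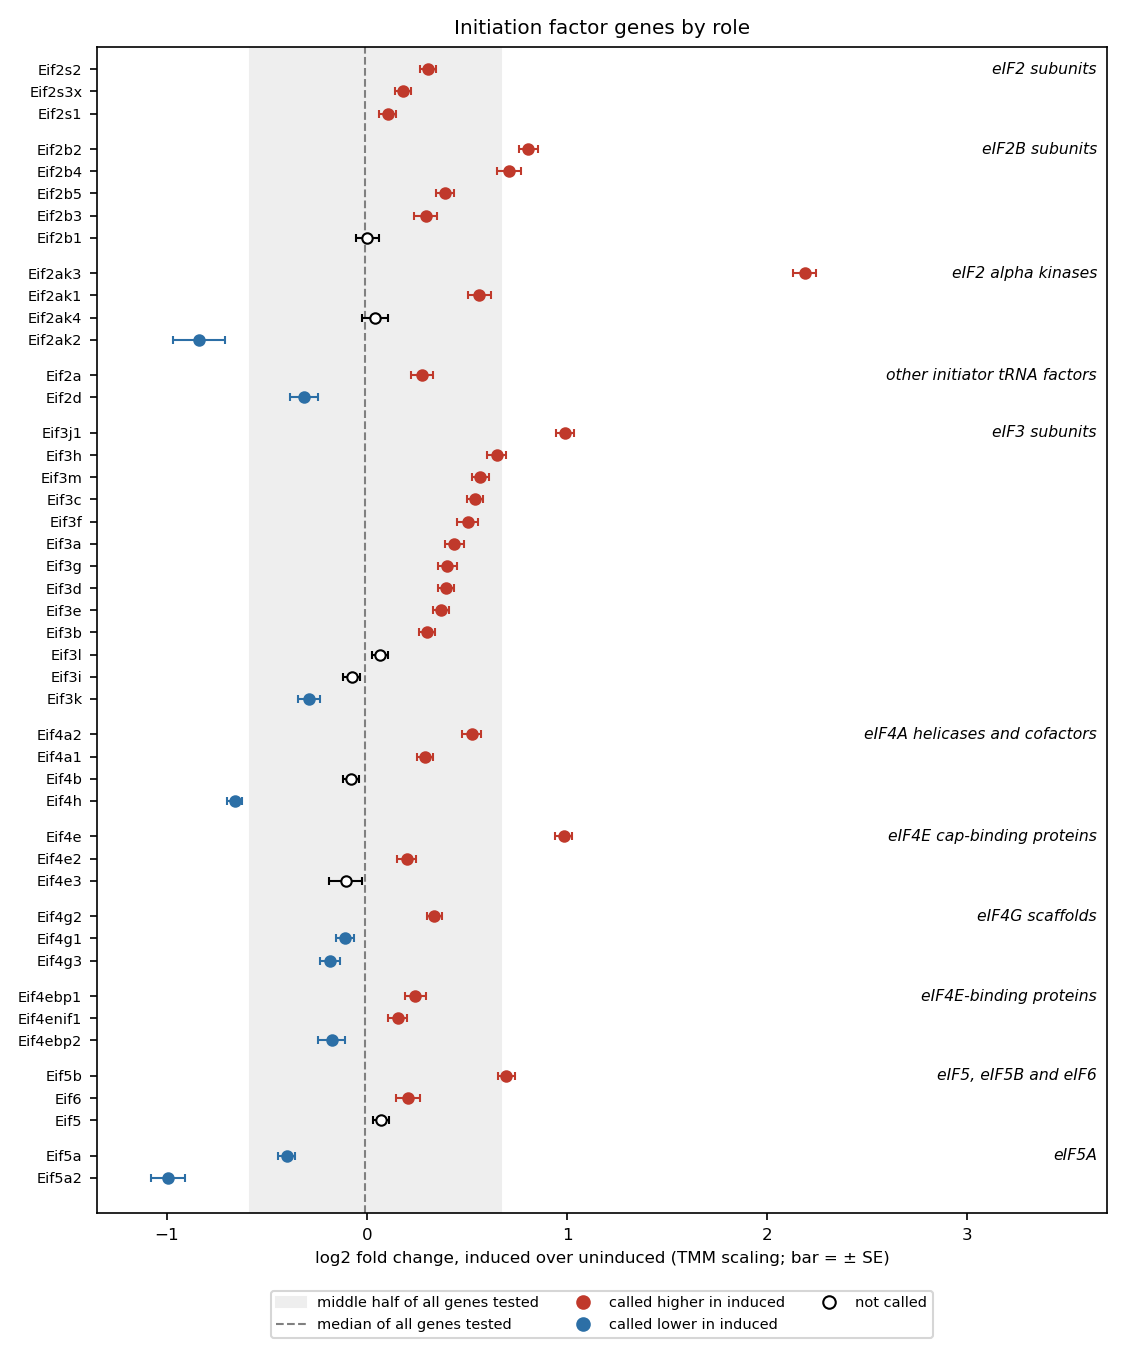
Log2 fold change (x axis, induced over uninduced, TMM scaling, bars ± SE) of the 45 tested initiation factor genes (y axis), grouped by role; filled points passed an edgeR adjusted p of 0.05 and open points did not. Eif2ak3 stands apart at 2.19 and Eif5a2 is lowest at -0.996; with library size alone 42 of these genes were lower and 1 was higher.

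Counts in each role group stand against 41.3% of all tested genes higher and 41.2% lower with TMM. Those shares were 15.2% and 76.7% with library size alone. No role group was tested as a set. The kinase genes of eIF2 alpha moved apart from one another: 2 of 4 rose and 1 fell with TMM, while with library size alone 1 was higher and 3 were lower. Eif2ak3 encodes PERK, the kinase of the endoplasmic reticulum, Eif2ak2 encodes PKR, which responds to double-stranded RNA, Eif2ak1 encodes HRI, which responds to lack of haem, and Eif2ak4 encodes GCN2, which responds to lack of amino acids. Eif2ak3, on chromosome 6 at 70844484 to 70905241 of GRCm38, had 85.2, 81.9 and 81.1 CPM in induced libraries, against 19.2, 17.9 and 17.3 CPM in uninduced libraries. Every induced library lay far above every uninduced one. The log2 fold change was 2.19 ± 0.057 (SE, edgeR adjusted p = 8.2e-21), or 4.56-fold, and it was 1.23 with library size alone, where Eif2ak3 was the member that was still called higher. Of its annotated exon bases 8.05% are shared with the antisense gene Gm43292, and the strand setting of the counts is not given in the sources used here.

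Eif2ak1 rose by less, with 44.1, 44.4 and 44.7 CPM in induced libraries, against 29.4, 31.3 and 29.5 CPM in uninduced libraries. Its log2 change was 0.56 ± 0.056 (SE), with an edgeR adjusted p of 2.1e-09, and became -0.40 with library size alone, and 11.6% of its exon bases are shared with antisense genes. Eif2ak2 fell, with 9.80, 7.70 and 7.58 CPM in induced libraries, against 17.2, 15.5 and 12.2 CPM in uninduced libraries. Libraries of both groups were widely spread around low levels, but the groups did not overlap, and the log2 fold change was -0.84 ± 0.13 (SE, edgeR adjusted p = 1.2e-05). Eif2ak4 was at 30.6 ± 0.445 CPM in induced cells and 29.8 ± 1.99 CPM in uninduced cells (SD, n = 3 each) with a log2 fold change of 0.040 ± 0.064 (SE), and its groups overlapped. Log2 fold changes of the 4 kinase genes thus ran from -0.84 to 2.19, the widest range of the 11 role groups with TMM. By CPM per kb of the longest coding transcript, a rough length scale, Eif2ak3 was at 18.3 in induced and 4.02 in uninduced cells, where it ranked above the other 3 kinases in induced cells only.

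Genes of the substrate of these kinases moved by less than 1.5-fold with TMM. The heterotrimer eIF2 is made from Eif2s1 (alpha, the subunit that is phosphorylated), Eif2s2 (beta) and the X-linked Eif2s3x (gamma). All 3 rose slightly with TMM scaling, at a median log2 fold change of 0.18, and all 3 fell with library size alone, at a median of -0.78. Eif2s1 had 131, 138 and 133 CPM in induced libraries, against 124, 121 and 129 CPM in uninduced libraries, which differed by 0.10 ± 0.043 (SE, edgeR adjusted p = 0.0298). That call was lost without induced replicate 2, induced replicate 3 or uninduced replicate 2 (edgeR adjusted p = 0.105, 0.05 and 0.174), and also with upper-quartile factors or without a filter on low counts (edgeR adjusted p = 0.3795 and 0.548). Eif2s2 had 227, 237 and 233 CPM in induced libraries, against 191, 181 and 191 CPM in uninduced libraries, and Eif2s3x had 388, 382 and 404 CPM in induced libraries, against 349.8, 337 and 349 CPM in uninduced libraries. Their log2 fold changes were 0.31 ± 0.041 and 0.18 ± 0.040 (SE), and the call of Eif2s3x was lost with upper-quartile factors (0.035, edgeR adjusted p = 0.430). The groups did not overlap for any of the 3 genes. The Y-linked copy Eif2s3y had no count in any library, which allows up to 0.171 to 0.194 CPM per induced library and 0.0898 to 0.0983 CPM per uninduced library when 3 counts are taken as the limit.

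eIF2B, the exchange factor that reloads eIF2, has 5 subunits. Its genes were higher in 4 of 5 cases with TMM, at a median of 0.39, but all 5 were lower with library size alone, at a median of -0.57. Eif2b2, the beta subunit of the regulatory core, had 96.0, 93.1 and 98.0 CPM in induced libraries, against 52.7, 53.7 and 57.8 CPM in uninduced libraries. Eif2b4, the delta subunit of the same core, had 43.8, 39.3 and 45.5 CPM in induced libraries, against 26.4, 25.5 and 26.8 CPM in uninduced libraries. Both rose by more than 1.5-fold, at 0.81 ± 0.049 and 0.71 ± 0.062 on the log2 scale (SE, edgeR adjusted p = 1.8e-13 and 2.0e-10). Of the Eif2b4 exon bases 7.85% are shared with antisense Snx17. Eif2b5, the catalytic epsilon subunit, had 93.5, 93.7 and 91.4 CPM in induced libraries, against 68.5, 70.9 and 73.2 CPM in uninduced libraries, and its change of 0.39 ± 0.046 (SE) was the median of the 5 genes. Eif2b3, the gamma subunit, was at 0.29 ± 0.058. Eif2b1, the alpha subunit, which also belongs to the core, averaged 35.8 ± 0.535 CPM in induced cells and 35.7 ± 1.41 CPM in uninduced cells (SD, n = 3 each) and was at 0.0026 on the log2 scale (edgeR adjusted p = 0.968), though it was called lower with upper-quartile factors (-0.14, edgeR adjusted p = 0.0257). The 3 genes of the regulatory core thus held both the largest and the smallest change of the complex. Within libraries, the ratio of Eif2b5 counts to Eif2s1 counts was 0.711, 0.680 and 0.690 in induced libraries, against 0.551, 0.588 and 0.568 in uninduced libraries, with no overlap between the groups.

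Eif2a and Eif2d encode factors that can deliver initiator or other tRNAs without eIF2, and Eif2d also acts in recycling. Eif2a had 53.0, 50.9 and 54.1 CPM in induced libraries, against 45.8, 41.0 and 44.0 CPM in uninduced libraries, a log2 fold change of 0.27 ± 0.055 (SE). Eif2d had 19.3, 20.7 and 18.5 CPM in induced libraries, against 23.5, 23.9 and 25.3 CPM in uninduced libraries, a log2 fold change of -0.31 ± 0.070 (SE). The pair went in opposite directions with TMM, while with library size alone both were lower, Eif2a at -0.69 and Eif2d at -1.28.

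Most genes for subunits of eIF3, the largest initiation complex, were higher with TMM. Of 13 tested genes 10 (76.9%) were higher, against 41.3% of all tested genes, 1 was lower and 2 were not called. Their log2 fold changes ran from -0.29 to 0.99, at a median of 0.40. With library size alone 12 were lower, against 76.7% of all genes, at a median of -0.56, and Eif3j1 was at 0.026. Eif3j1, for a loosely bound subunit that acts in mRNA channel entry and recycling, had 183, 185 and 183 CPM in induced libraries, against 89.4, 90.5 and 97.2 CPM in uninduced libraries. It had the largest change of the eIF3 genes with TMM, at 0.99 ± 0.043 (SE, edgeR adjusted p = 2.8e-16), and 20.2% of its exon bases are shared with Gm47314 on the same strand and with antisense Spg11. Eif3h had 366, 318 and 358 CPM in induced libraries, against 218, 221 and 226 CPM in uninduced libraries, and Eif3m had 134, 131 and 135 CPM in induced libraries, against 87.9, 90.5 and 92.1 CPM in uninduced libraries. These subunits of the octameric core were at 0.65 ± 0.047 and 0.57 ± 0.043 (SE).

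Eif3a, the largest core subunit and the most abundant of the group by CPM, had 542, 518 and 513 CPM in induced libraries, against 419, 369 and 373 CPM in uninduced libraries. Its log2 fold change of 0.44 ± 0.046 (SE) lay near the median of the complex. Eif3c (0.54), Eif3f (0.50), Eif3g (0.40), Eif3d (0.40), Eif3e (0.37) and Eif3b (0.30) also rose on the log2 scale, and all 6 were lower with library size alone. Eif3d shares 43.3% of its exon bases with the antisense gene Gm17638, so its counts are less certain than those of the others. Eif3l, also a core subunit, was at 0.067 ± 0.041 and Eif3i, which sits with Eif3b and Eif3g outside the core, at -0.077 ± 0.042 (SE), neither past the threshold. Without uninduced replicate 1, Eif3i was called lower at -0.10 (edgeR adjusted p = 0.0329), as it was with upper-quartile factors (-0.22, edgeR adjusted p = 3.6e-05) and without a filter on low counts (-0.15, edgeR adjusted p = 0.00203). Eif3k, which pairs with Eif3l at the edge of the complex, fell, with 59.0, 52.8 and 54.5 CPM in induced libraries, against 65.4, 67.3 and 70.8 CPM in uninduced libraries. Its log2 fold change was -0.29 ± 0.053 (SE, edgeR adjusted p = 2.7e-05). The genes of the Eif3k and Eif3l pair were thus the lowest core subunits of the complex.

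The helicase and its cofactors were split, with 2 of 4 genes higher and 1 lower, while all 4 were lower with library size alone. Eif4a1, the main eIF4A helicase, on chromosome 11 at 69666936 to 69672423, had 1109, 1113 and 1135 CPM in induced libraries, against 909, 898 and 938 CPM in uninduced libraries, and its paralogue Eif4a2 had 279.8, 318 and 299 CPM in induced libraries, against 199, 207 and 218 CPM in uninduced libraries. Both rose, by 0.29 ± 0.038 and 0.52 ± 0.047 (SE), and both were lower with library size alone, at -0.67 and -0.44. Of the exon bases 6.62% in Eif4a1 and 13.3% in Eif4a2 are shared with other annotated genes, which for Eif4a2 include small nucleolar RNA genes such as Snora81 and Snord2. Eif4b and Eif4h encode related proteins that stimulate the helicase. Eif4h had 203, 199 and 204 CPM in induced libraries, against 317, 320.4 and 319.5 CPM in uninduced libraries, a log2 change of -0.66 ± 0.039 (SE, edgeR adjusted p = 1.0e-13), with the 3 libraries of each group close together. Eif4b had 468, 443 and 467 CPM in induced libraries, against 496, 477 and 483 CPM in uninduced libraries. It was not called at -0.079 ± 0.040 (SE), although its groups did not overlap, and it was called lower with upper-quartile factors (-0.22, edgeR adjusted p = 1.5e-05) and without a filter on low counts (-0.15, edgeR adjusted p = 4.7e-04). The ratio of Eif4b to Eif4h counts within libraries was 2.31, 2.23 and 2.30 in induced libraries, against 1.56, 1.49 and 1.51 in uninduced libraries.

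**Figure D2:**
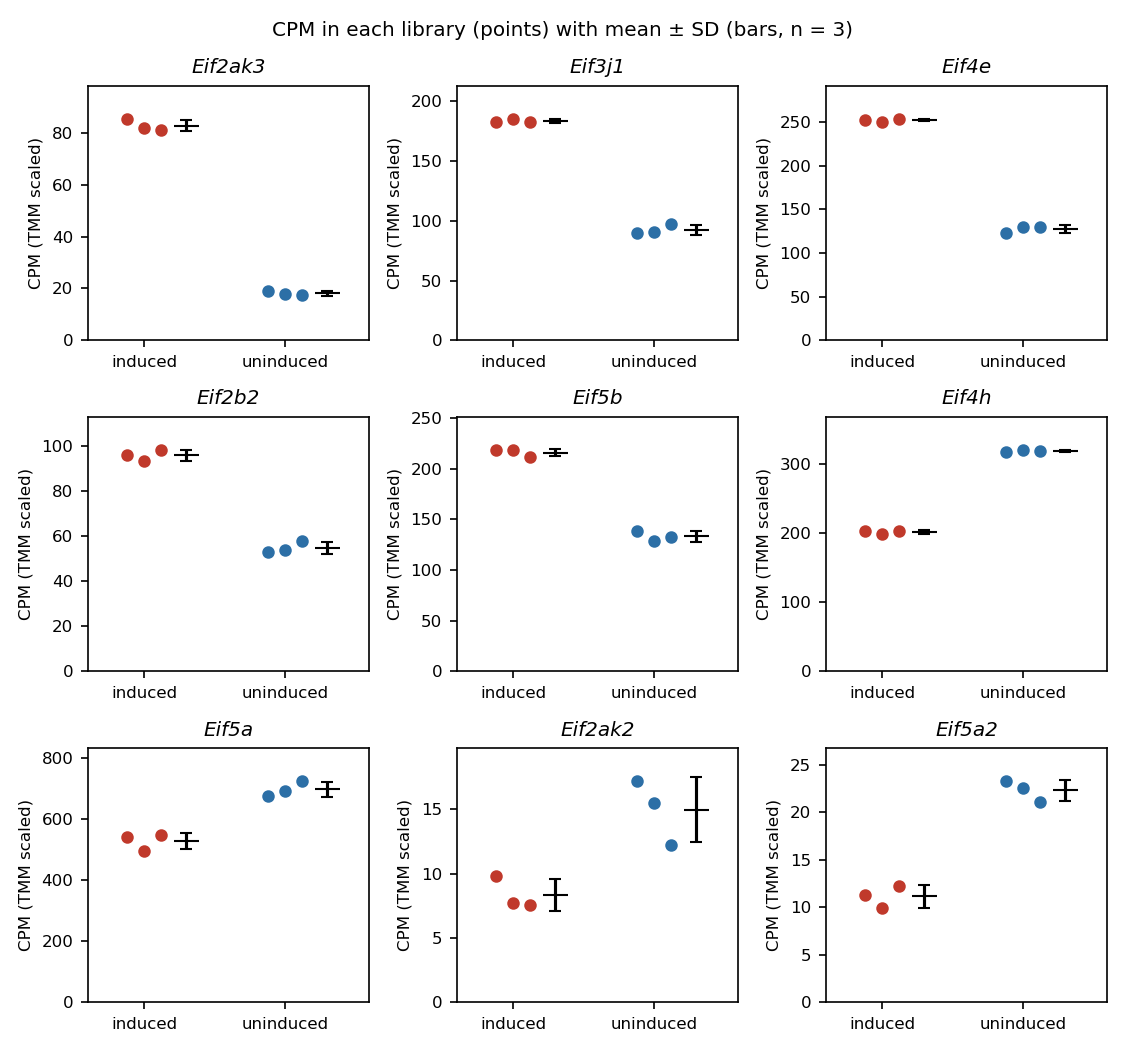
CPM (y axis, TMM scaled, from 0) of 9 initiation factor genes in each induced and uninduced library (points), with the mean ± SD of 3 libraries (black bars). The groups are apart in every panel, most widely for Eif2ak3, and with library size alone Eif2b2 and Eif5b were lower in induced cells, at -0.16 and -0.27 on the log2 scale.

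The cap-binding protein gene Eif4e, on chromosome 3 at 138526191 to 138559696, had 253, 250.3 and 253 CPM in induced libraries, against 123, 130.0 and 129.8 CPM in uninduced libraries. The change of 0.98 ± 0.041 (SE, edgeR adjusted p = 1.1e-16) was close to 2-fold. With library size alone it was 0.019 (edgeR adjusted p = 0.650), while 42 of the 45 members were lower on that scale. Eif4e2, for a cap-binding protein linked to translational repression, had 96.2, 97.9 and 105 CPM in induced libraries, against 84.1, 85.5 and 91.0 CPM in uninduced libraries. Eif4e3, for a further cap-binding relative, had 14.6, 13.5 and 13.1 CPM in induced libraries, against 14.6, 14.5 and 15.3 CPM in uninduced libraries. Their log2 fold changes were 0.20 ± 0.048 for Eif4e2, which was called, and -0.11 ± 0.082 for Eif4e3, which was not (SE), and with library size alone both were lower. With upper-quartile factors these calls changed places, Eif4e2 being at 0.053 (edgeR adjusted p = 0.3145) and Eif4e3 being called lower at -0.25 (edgeR adjusted p = 0.00703). Of the Eif4e3 exon bases 14.8% are shared with Gm20696 on the same strand. Eif4e1b, the form known from oocytes, had no count in any library. The ratio of Eif4e to Eif4e2 counts was 2.62, 2.56 and 2.42 in induced libraries, against 1.46, 1.52 and 1.43 in uninduced libraries, and that of Eif4e to Eif4e3 counts was 17.3, 18.5 and 19.2 in induced libraries, against 8.40, 8.94 and 8.46 in uninduced libraries.

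Of the 3 eIF4G scaffold genes 1 was higher and 2 were lower, while all 3 were lower with library size alone. Eif4g2 encodes DAP5, a scaffold that lacks the binding site for eIF4E, and was the member with the most counts. It had 1802, 1819 and 1854 CPM in induced libraries, against 1484, 1419 and 1429 CPM in uninduced libraries, a rise of 0.34 ± 0.038 (SE) that became -0.63 with library size alone. Eif4g1, the main scaffold, had 559.6, 521 and 533 CPM in induced libraries, against 623, 559 and 559.7 CPM in uninduced libraries. Its groups overlapped, and its call at -0.11 ± 0.045 (SE, edgeR adjusted p = 0.0293) was lost without induced replicate 2, induced replicate 3 or uninduced replicate 1 (edgeR adjusted p = 0.122, 0.107 and 0.178) and with RLE factors (edgeR adjusted p = 0.0608). Eif4g3 had 98.4, 97.6 and 93.3 CPM in induced libraries, against 117, 108 and 103 CPM in uninduced libraries, a log2 change of -0.18 ± 0.049 (SE). The ratio of Eif4g1 to Eif4g2 counts was 0.311, 0.287 and 0.287 in induced libraries, against 0.420, 0.394 and 0.392 in uninduced libraries, without overlap, while that of Eif4g1 to Eif4g3 was 5.68, 5.34 and 5.71 in induced libraries, against 5.31, 5.19 and 5.41 in uninduced libraries, where the groups overlapped.

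Among genes of proteins that bind eIF4E, 2 of 3 rose and 1 fell by less than 1.5-fold, and all 3 were lower with library size alone. Eif4ebp1, for the mTORC1-controlled repressor 4E-BP1, had 111, 96.0 and 106 CPM in induced libraries, against 84.3, 88.3 and 92.7 CPM in uninduced libraries. Eif4ebp2, for its paralogue, had 28.8, 27.2 and 29.4 CPM in induced libraries, against 35.0, 31.8 and 29.7 CPM in uninduced libraries. Eif4ebp1 was higher by 0.24 ± 0.053 and Eif4ebp2 lower, with a log2 change of -0.18 ± 0.068 (SE, edgeR adjusted p = 2.1e-04 and 0.0202). The Eif4ebp2 call was lost without induced replicate 2 or uninduced replicate 1 (edgeR adjusted p = 0.0854 and 0.118). Eif4enif1, for the transporter that carries eIF4E into the nucleus, had 63.7, 65.7 and 65.5 CPM in induced libraries, against 59.0, 59.1 and 57.1 CPM in uninduced libraries, a change of 0.15 ± 0.048 (SE). With upper-quartile factors the calls of Eif4ebp1 and Eif4enif1 were lost (edgeR adjusted p = 0.0873 and 0.885), and that of Eif4enif1 was also lost without a filter on low counts (edgeR adjusted p = 0.177). Eif4ebp3 had counts of 3, 0 and 1 in induced libraries and of 3, 5 and 2 in uninduced libraries, too few for a test. Within libraries the ratio of Eif4ebp1 to Eif4e counts was 0.441, 0.384 and 0.419 in induced libraries, against 0.688, 0.679 and 0.714 in uninduced libraries. Every induced library thus held fewer Eif4ebp1 counts for each Eif4e count than any uninduced library.

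Later steps of initiation gave 1 larger change. Eif5b, for the GTPase that joins the large subunit, had 218, 218 and 212 CPM in induced libraries, against 139, 128 and 133 CPM in uninduced libraries. It rose by 0.70 ± 0.042 (SE, edgeR adjusted p = 1.8e-13), and 16.9% of its exon bases are shared with antisense Rev1. Eif5, for the GTPase-activating factor of eIF2, had 297, 313 and 293 CPM in induced libraries, against 288, 277 and 294 CPM in uninduced libraries. Its groups overlapped and it was not called at 0.070 ± 0.041 (SE). Eif6, which keeps large subunits from joining too early, had 96.6, 77.8 and 87.8 CPM in induced libraries, against 73.3, 76.4 and 78.4 CPM in uninduced libraries. It passed the threshold at 0.20 ± 0.060 (SE, edgeR adjusted p = 0.00449) although its groups overlapped, and the call was lost with upper-quartile factors (0.0575, edgeR adjusted p = 0.3595). With library size alone all 3 genes were lower, at a median of -0.76.

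Both eIF5A genes fell with TMM. Library size alone, upper-quartile factors and the member sum lower every log2 fold change, so both genes had to stay lower there. eIF5A carries the modified amino acid hypusine and helps ribosomes through difficult peptide bonds as well as at termination. Eif5a, the widely expressed form, had 539, 496 and 547 CPM in induced libraries, against 676, 691 and 723 CPM in uninduced libraries. Its log2 change was -0.40 ± 0.043 (SE), with an edgeR adjusted p of 8.4e-09. Eif5a2, the less expressed paralogue, on chromosome 3 at 28781032 to 28798846, had 11.3, 9.90 and 12.2 CPM in induced libraries, against 23.3, 22.5 and 21.1 CPM in uninduced libraries. The log2 fold change was -0.996 ± 0.084 (SE), with an edgeR adjusted p of 1.1e-10. Among the members Eif5a2 fell most, and the 3 induced libraries were all below the 3 uninduced ones. The ratio of Eif5a to Eif5a2 counts was 47.5, 49.98 and 44.6 in induced libraries, against 29.0, 30.6 and 34.2 in uninduced libraries.

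Count ratios within a library do not depend on how libraries are scaled. Of 12 pairs listed, 10 had enough counts, and for 9 of them the induced and uninduced libraries did not overlap. Ratios of other gene pairs were not taken, so no background share stands beside this count. Of all tested genes taken singly, 83.1% did not overlap in CPM. An exact two-sided permutation test with its 20 arrangements cannot give less than p = 0.1 with 3 against 3, which these 9 pairs reached (0.111 adjusted over the 10 pairs), so none can pass a threshold of 0.05. The Eif4g1 to Eif4g3 ratio had an exact permutation p of 0.2. Mean log2 differences in the ratio were 1.09 for Eif4e to Eif4e3, 0.79 for Eif4e to Eif4e2, 0.60 for Eif5a to Eif5a2, 0.58 for Eif4b to Eif4h and 0.41 for Eif4ebp1 to Eif4ebp2. They were -0.75 for Eif4ebp1 to Eif4e, -0.45 for Eif4g1 to Eif4g2 and -0.23 for Eif4a1 to Eif4a2.

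**Figure D3:**
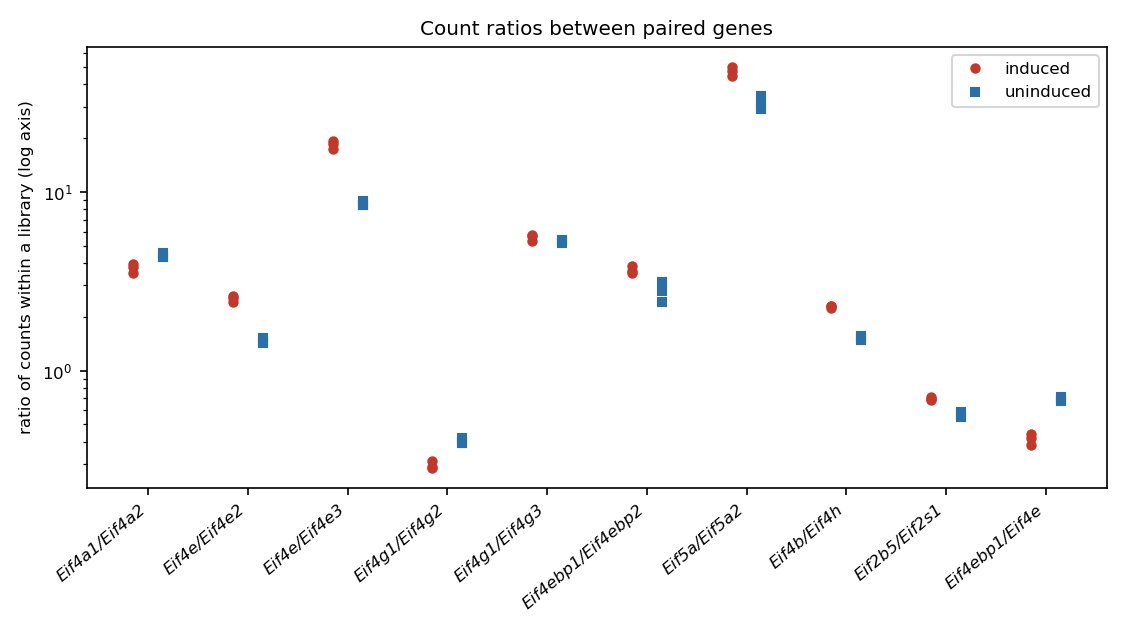
Ratio of the counts of 2 genes within each library (y axis, log scale) for 10 pairs (x axis), with induced libraries as circles and uninduced libraries as squares. The groups are apart for 9 pairs and overlap for Eif4g1 to Eif4g3; the Eif4e to Eif4e3 ratio lies between 17.3 and 19.2 in induced and between 8.40 and 8.94 in uninduced libraries.

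Each library was also scaled to the summed counts of the tested members, a setting added after seeing the data, so that a fold change is relative to the family. Against the family, Eif2ak3 was at 1.95, Eif3j1 at 0.75, Eif4e at 0.75 and Eif2b2 at 0.57. On the other side stood Eif5a2 at -1.23, Eif2ak2 at -1.08, Eif4h at -0.90 and Eif5a at -0.64. With this scaling 18 members were higher (against 32.2% of all genes) and 17 lower (against 51.9% of all genes). Eif4g2 held 16.9% of the members' counts in induced and 15.8% in uninduced libraries on average, Eif4a1 10.4% in induced and 10.0% in uninduced, and Eif5a 4.89% in induced and 7.62% in uninduced. By CPM per kb of the longest coding transcript, Eif4a1 ranked highest among the members, at 631 in induced and 516 in uninduced cells, followed by Eif5a, at 367 in induced and 485 in uninduced cells. The lowest of the tested members was Eif2ak2, at 1.94 in induced and 3.47 in uninduced cells. Transcript lengths were taken from GENCODE and not from the isoforms in use, so these ranks are rough.

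**Figure D4:**
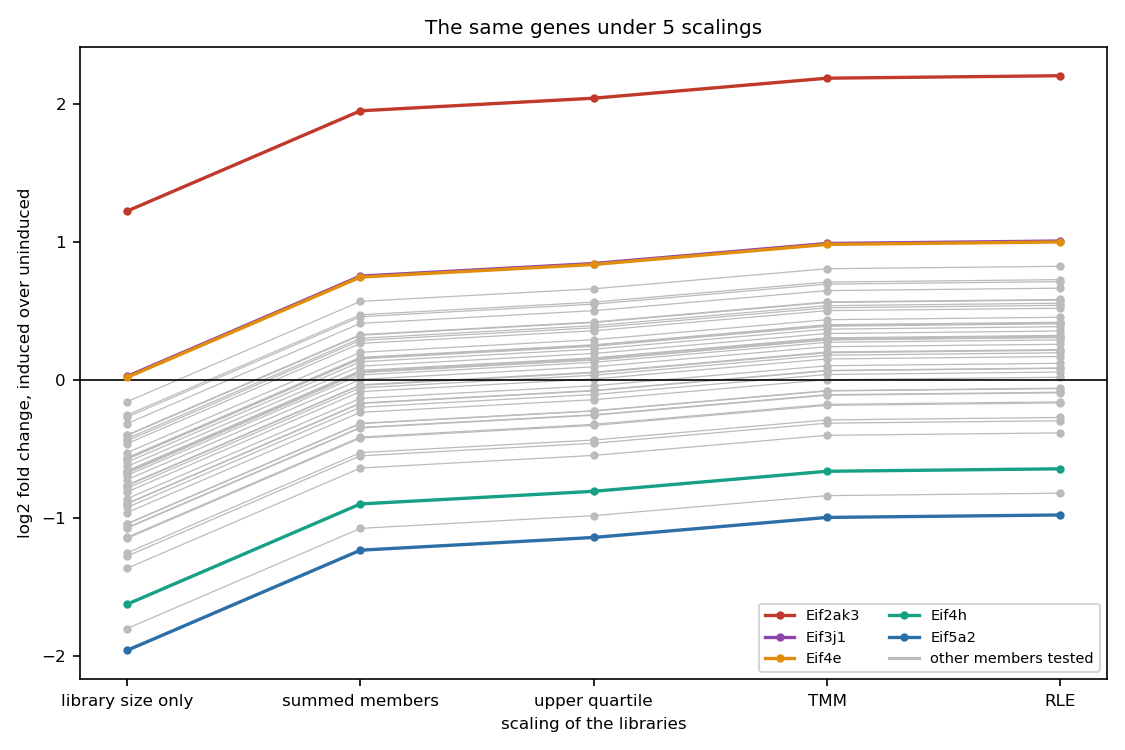
Log2 fold change (y axis, induced over uninduced) of the 45 tested members under 5 scalings of the libraries (x axis), each line being 1 gene. The lines run parallel: Eif2ak3 stays above 0 and Eif4h and Eif5a2 below it under all 5, whereas the median member is at -0.69 with library size only and at 0.27 with TMM. Library size only, upper quartile and summed members lower every gene relative to TMM, so Eif4h and Eif5a2 had to stay below 0 there.

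Companion genes of the pathway, listed with earlier results of these data known, are given beside the members. Counts in each list stand against 41.3% of all tested genes higher and 41.2% lower with TMM. With library size alone 15.2% of all genes were higher and 76.7% lower. No list was tested as a set. A list of 4 genes related to eIF1 or eIF1A held Eif1, Eif1ax, Eif1b and Eif1ad, and other Eif1a-like genes were not part of it. Of these 4 genes 3 fell and 1, Eif1ad, was not called, while all 4 were lower with library size alone. Eif1b fell by most, with 8.89, 10.7 and 9.99 CPM in induced and 21.5, 24.3 and 24.4 CPM in uninduced libraries (log2 fold change -1.25 ± 0.087, SE), and Eif1 was at -0.28 ± 0.043 (SE). Of 8 tested elongation factors 4 rose and 3 fell, while all 8 were lower with library size alone. Eef1b2 was at 0.72 and Eef2 at 0.41, whereas Eefsec was at -0.55 and Eef2k, the inhibitory kinase of eEF2, at -0.38. Of 6 tested termination and recycling genes 2 rose and 4 fell. Abce1, the ATPase that splits ribosomes after termination and works with eIF3, had 92.2, 101 and 96.1 CPM in induced and 194, 181 and 189 CPM in uninduced libraries, and Denr, whose protein partners MCTS1 and resembles eIF2D in part, had 39.8, 39.9 and 40.8 CPM in induced and 64.3, 68.6 and 69.8 CPM in uninduced libraries. Their log2 fold changes were -0.96 ± 0.045 and -0.75 ± 0.053 (SE). The 2 that rose were Mcts2 at 1.04 and Etf1 at 0.26, which with library size alone were at 0.073 and -0.71. Mcts1 itself fell, at -0.56 ± 0.10 (SE), so Mcts1 and Mcts2 went opposite ways with TMM.

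Poly(A)-binding proteins, which join the tail of the mRNA to eIF4G, and their regulators were higher in 4 of 5 cases with TMM and lower in all 5 with library size alone. This count mixes the binding proteins with their regulators. Of the binding proteins, Pabpc1 was at 0.57, while Pabpc4 was at -0.032 and was not called. Paip2b, a regulator, was at 0.81. A list of 7 further genes held helicases and cofactors, and also Pdcd4 and the ribosome rescue factors Pelo and Hbs1l. Of these 7 genes 6 were higher with TMM, Pdcd4 at 0.55 among them, and 6 were lower with library size alone. Pelo, the ribosome rescue factor, was at 1.44 with TMM and 0.48 with library size alone, and Ddx3x was at 0.73 with TMM and -0.24 with library size alone. Hbs1l, the partner of Pelo, was at -0.16. Of the 2 enzymes that make hypusine, Dhps was at -0.45 and Dohh at 0.18, and both were lower with library size alone.

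Of 9 genes around eIF2 phosphorylation 6 rose and 3 fell, against 41.3% of all tested genes higher and 41.2% lower. With library size alone 2 were higher and 7 were lower, against 15.2% of all genes higher and 76.7% lower. Ppp1r15a, which encodes the inducible GADD34 subunit of the phosphatase that reverses eIF2 phosphorylation, had 237, 248 and 236 CPM in induced and 38.8, 37.3 and 34.4 CPM in uninduced libraries. Its log2 fold change was 2.70 ± 0.049 (SE, edgeR adjusted p = 6.6e-24), and 1.74 with library size alone. Trib3, a target of ATF4, was at 1.34 ± 0.073. Impact, an inhibitor of GCN2, and Dnajc3, an inhibitor of PKR and PERK, were at -0.85 ± 0.061 and -0.43 ± 0.050 (SE). Among 12 genes of mTORC1 and cap-complex signalling 5 rose, 3 fell and 4 were not called, while with library size alone 1 was higher and 10 were lower. Mknk2 and Mknk1 encode the kinases that phosphorylate eIF4E. Mknk2 had 349, 318 and 333 CPM in induced and 115, 116 and 111 CPM in uninduced libraries and Mknk1 had 48.1, 46.3 and 45.5 CPM in induced and 23.4, 23.0 and 23.1 CPM in uninduced libraries, log2 fold changes of 1.54 ± 0.043 and 1.01 ± 0.057 (SE) that became 0.58 and 0.044 with library size alone. Mlst8, a subunit of mTOR complexes, fell by most at -1.26 ± 0.087 (SE), and Rps6kb1 was at -0.27. These are levels of mRNA, and phosphorylation and protein were not measured here.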

How the data were processed

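Polyadenylated RNA of 3 induced and 3 uninduced cultures was sequenced, and the authors deposited 1 table of raw read counts per gene. Per the submitters' processing notes, TopHat2 2.0.12, Bowtie2 2.2.3 and CASAVA were used with build mm10; how reads were counted, with which strand setting and annotation, is not given in the sources used here. Samples were grouped by their treatment label. edgeR 4.0.16 (filterByExpr, TMM factors, robust quasi-likelihood fit, Benjamini-Hochberg adjustment over 12969 genes) was run on the deposited counts, and it was checked on simulated counts. The simulated counts had far fewer changed genes, raised and lowered in equal number, so the check does not bear on the choice of scaling. SE was taken as the size of the log2 fold change over the root of its F statistic. CPM use TMM-scaled library sizes. P-values measure the spread between these cultures of 1 clone. Intervals and limits from counts cover counting error only. The 13 rows with no symbol were not among the members. The members and the companion lists were chosen with earlier results of these data known. Members described in each role were the up to 3 called genes that rose most and the up to 3 that fell most. Both genes of a paralogue pair and the most abundant gene were also described. Of each companion list up to 2 rising and 2 falling called genes are named, with Mcts1, Pabpc4 and Pdcd4 named besides. Alternatives were DESeq2 1.42.0, limma-voom (limma 3.58.1), other scalings and filters, a replicate block and leaving out each library, with effects in the closing section. Promoters came from RefSeq (GRCm38.p6).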

Additional observations from a re-analysis of the deposited data

How the results depend on the processing

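The direction of most members depends on how libraries are scaled. With library size as the only scaling, 1977 genes were higher and 9949 lower, and 1 member was higher and 42 lower, of which 1 was higher and 29 lower by at least 1.5-fold. Medians were then -0.69 for the members and -0.97 for all genes. Log2 fold changes turned negative for 30 members, Eif2b3 (-0.67), Eif2s1 (-0.86), Eif2b4 (-0.25), Eif3a (-0.53), Eif4a1 (-0.67), Eif4a2 (-0.44), Eif4ebp1 (-0.72), Eif4g2 (-0.63), Eif2ak1 (-0.40), Eif3e (-0.59), Eif6 (-0.76), Eif2b1 (-0.96), Eif2b2 (-0.16), Eif5 (-0.89), Eif3l (-0.90), Eif2b5 (-0.57), Eif5b (-0.27), Eif2a (-0.69), Eif2s3x (-0.78), Eif4e2 (-0.77), Eif2ak4 (-0.92), Eif3b (-0.66), Eif3g (-0.56), Eif3d (-0.57), Eif3c (-0.42), Eif3f (-0.46), Eif2s2 (-0.66), Eif3h (-0.32), Eif4enif1 (-0.81) and Eif3m (-0.40). With upper-quartile factors 23 members were higher, 4 of them by at least 1.5-fold, and 13 lower, the medians were 0.13 for members and -0.16 for all genes, and the sign turned for Eif2s1 (-0.042), Eif2b1 (-0.14), Eif5 (-0.075), Eif3l (-0.078) and Eif2ak4 (-0.10). The calls of Eif4ebp1 (0.10), Eif6 (0.058), Eif2s3x (0.035), Eif4e2 (0.053) and Eif4enif1 (0.0078) and Eif2s1 were lost there, and Eif3i (-0.22), Eif4e3 (-0.25) and Eif4b (-0.22) and Eif2b1 were called lower. Scaled to the summed counts of the members, a setting chosen after seeing the data, 18 members were higher, 3 of them by at least 1.5-fold, and 17 lower, the medians were 0.037 for members and -0.25 for all genes, and the sign turned for Eif2s1 (-0.13), Eif6 (-0.034), Eif2b1 (-0.23), Eif5 (-0.17), Eif3l (-0.17), Eif2s3x (-0.057), Eif4e2 (-0.039), Eif2ak4 (-0.20) and Eif4enif1 (-0.084). Calls were lost for Eif2b3 (0.056), Eif4a1 (0.054), Eif4ebp1 (0.0045), Eif2a (0.037), Eif3b (0.064) and Eif2s2 (0.070), and for Eif6, Eif2s3x, Eif4e2 and Eif4enif1, while Eif2s1, called higher with TMM, and Eif2b1, Eif5, Eif3l, Eif2ak4, Eif3i (-0.31), Eif4e3 (-0.34) and Eif4b (-0.32) were called lower. Without a filter on low counts 27 members were higher and 11 lower, the medians were 0.20 for members and 0.095 for all genes, 0.11 apart against 0.28 with the filter, and the sign turned for Eif2b1 (-0.070), Eif5 (-0.0025), Eif3l (-0.0053) and Eif2ak4 (-0.032). The calls of Eif2s1 (0.031) and Eif4enif1 (0.081) were lost, and Eif3i (-0.15) and Eif4b (-0.15) were called lower. The 8 members Eif2ak2, Eif2ak3, Eif2d, Eif3k, Eif4g3, Eif4h, Eif5a and Eif5a2 kept direction and call under every alternative run. Library size alone, upper-quartile factors and the member sum each lower every log2 fold change by a like amount. Members lower with TMM therefore had to stay lower there. Leaving aside library size alone and the member sum, 30 of the 45 tested members kept direction and call.

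Leaving out each library in turn, Eif2b1 ranged over -0.019 to 0.033 and Eif2ak4 over -0.019 to 0.066, neither called with all libraries. The call of Eif4g1 and that of Eif4ebp2 were also lost with DESeq2, and that of Eif4g1 with RLE factors. Deviations of same-numbered libraries had correlations of 0.0879, -0.0016 and 0.082 for replicates 1, 2 and 3. Across numbers, induced replicate 3 with uninduced replicate 1 gave -0.0902, and induced replicate 1 with uninduced replicate 3 gave -0.0813. Replicates 1 and 3 thus correlated best with their own number, while replicate 2 correlated little with any. The labels do not say that the numbers pair cultures, so the main fit had no block. With the replicate number as a block, 39 members and 10813 genes were called, against 38 members and 10698 genes without it, and 29 members were higher and 10 lower, Eif4b being added, as it was with upper-quartile factors, without a filter and with the member sum. All 80 values of the gene-pair ratios under other settings stayed within the spread between libraries. Those from leaving out a library could not have done otherwise, because this moves a mean of 3 values by less than their SD. They therefore say nothing about how stable the ratios are. The other values came from adding 0 or 5 to each count in place of 0.5, where all 10 pairs stayed within the spread. Members with few counts, such as Eif4ebp3, could not be tested at this depth.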
